A study of Homo sapiens with 24 samples.

Results

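The genes followed here are those that copy the genome and those that divide it, 56 genes listed by symbol for their known roles, with no threshold on any value. Of these, 25 act in DNA replication and 31 in mitosis. Gene symbols were matched to the Ensembl identifiers of the count tables for 55 of the 56, 24 of replication and all 31 of mitosis. These 55 were among the 14348 genes tested in batch 1 and the 14054 tested in batch 2, and the lowest count of any of them in any library was 253 reads. The remaining listed replication gene is not analysed here.

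Steady-state mRNA was measured by polyA-selected, strand-specific RNA-seq in 24 libraries of Flp-In T-REx 293 cells, a derivative of the HEK293 human embryonic kidney line that carries the tetracycline repressor. Cells were transduced with a lentiviral vector whose doxycycline-inducible CMV promoter drove a GFP transcript, and the intron of that transcript held an artificial miRNA hairpin or, in the empty vector, no hairpin. All cells, control cells included, were selected for 6 days in 1 mg/mL geneticin and then received 1 µg/mL doxycycline for 7 days. Batch 1 held miR-122, miR-1 and an empty vector control with 2 libraries each. Batch 2 held miR-155, miR-133a, the related miR-373, miR-372 and miR-302a and its own empty vector control, with 3 libraries each. Each replicate came from a transduction of its own, and every comparison was made within a batch, a miRNA against that batch's control. The miRNAs were thus expressed from a viral promoter in a kidney-derived line, not in the tissues in which they are naturally found.

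A dividing culture holds cells in every phase of the cell cycle. The MCM helicase is loaded at origins in G1, E2F factors switch on the replication genes as cells enter S phase, and the B-MYB and FOXM1 complexes switch on the mitotic genes in G2. The abundance of the 2 sets of mRNA in a bulk library is therefore commonly read as a sign of how much of the culture is copying or dividing its DNA. A library cannot tell fewer cells in a phase apart from less mRNA per cell, and that holds for every level given here. A miRNA itself lowers mRNAs whose 3′ untranslated region (UTR) pairs with its seed, the bases 2 to 8 from its 5′ end.

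The seed decides which mRNAs a miRNA can pair with, so the mature sequences are shown with the seed in capitals, as RefSeq lists them. The 7 miRNAs held 5 seeds.
miR-1: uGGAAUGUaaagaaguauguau
miR-122: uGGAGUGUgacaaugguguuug
miR-133a: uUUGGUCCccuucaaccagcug
miR-155: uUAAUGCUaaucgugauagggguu
miR-302a: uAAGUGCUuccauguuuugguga
miR-372: aAAGUGCUgcgacauuugagcgu
miR-373: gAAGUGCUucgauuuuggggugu
The last 3 shared the seed AAGUGCU and formed a family, whereas each of the other 4 had a seed of its own.

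Libraries of batch 1 held 20153452 to 21595191 counted reads and those of batch 2 held 13047400 to 35040778. Replicate libraries differed by more than counting alone would give (chi-square divided by its degrees of freedom, 1.81 to 35.3). The cells had their own markers: LIN28B stood at 52.2 to 174.8 CPM (counts scaled to library size, here by TMM), and 6 of the 7 listed HEK293 markers were measured. Hepatocyte, muscle and blood markers were at or near 0, with no hepatocyte marker above 0.41 CPM, no blood marker above 0.15 and no muscle marker above 1.21. Libraries differed in how their counts leaned on gene length. The slope of a library's log2 deviation from the batch mean on log2 exon length was -0.019 to 0.030 in batch 1. In batch 2 it was 0.038 to 0.081 in the empty vector libraries and -0.101 to 0.040 in the miRNA libraries, lowest in miR-155 replicate 2 and miR-372 replicate 2. These values are set beside the results they move with.

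In the empty vector the genes were expressed well above the typical gene. In batch 1 the replication genes had a median level of 59.0 CPM per kilobase of counted exon and the mitosis genes 50.7, and all 55 lay above the median tested gene. PCNA, the sliding clamp that holds the polymerases on DNA, was the most abundant at 287.8 ± 11.4 CPM per kilobase (SD, n = 2), followed by the helicase subunit MCM7 at 231.1 ± 2.8. TOP2A, the topoisomerase that untangles sister chromatids, and TYMS, which makes thymidylate, came next at 168.6 ± 7.1 and 168.2 ± 4.8, a gap smaller than either spread. POLE2, a subunit of the leading-strand polymerase, was the lowest at 10.9 ± 1.1 CPM per kilobase, just under the phosphatase CDC25C at 12.3 ± 0.7.

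Changes against the empty vector were small. Between 39 and 52 of the 55 genes differed by less than 0.2 on the log2 scale in each of the 7 comparisons. A gene was called changed when its adjusted p was under 0.05 in edgeR's quasi-likelihood test with Benjamini-Hochberg adjustment over all genes tested, and every adjusted p in this report comes from that test unless another is named. By that rule 34 of the 55 genes changed in no comparison and 21 in at least 1. Of all genes tested, 5.13% (miR-373) to 24.5% (miR-1) were called in a single comparison. The share called in at least 1 comparison was not counted, so 21 of 55 cannot be read as few or many. The median fold change of all genes tested lay between -0.0010 and 0.0057 on the log2 scale in every comparison with the empty vector. In batch 2 it differed with gene length, and 48 of the 55 genes had at most 5 kb of counted exon. All tested genes of that length had medians of 0.037 with miR-133a, 0.055 with miR-155, 0.044 with miR-302a, 0.050 with miR-372 and 0.025 with miR-373. List medians of batch 2 are to be read beside these values as well as beside 0.

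**Figure D1:**
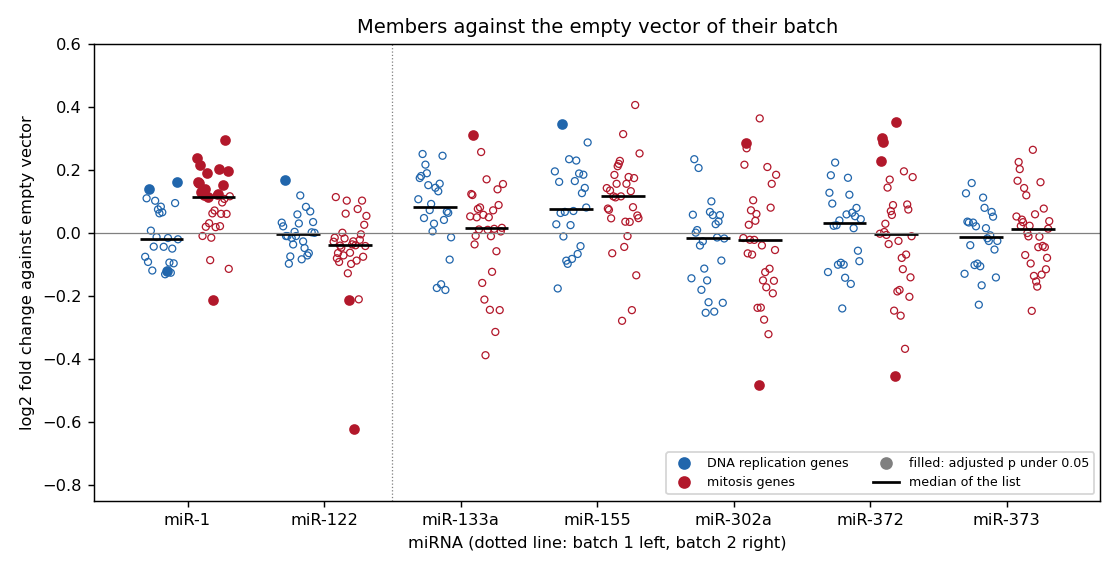
Log2 fold change of each of the 24 replication genes (blue) and 31 mitosis genes (red) against the empty vector of the same batch, by miRNA, with filled points for an adjusted p under 0.05 and black bars at the list medians. With miR-1 the mitosis genes centre on 0.115 and 14 filled points lie above 0, whereas KIF11 at -0.62 with miR-122 is the largest change in the plot.

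Upon miR-1 expression, mitosis genes rose by a small amount and the replication genes did not move as a group. Of the 31 mitosis genes 14 rose and 1 fell, and of the 24 replication genes 2 rose and 1 fell. Among all genes tested 24.5% were called, 10.8% higher and 13.7% lower, so the called share was 48.4% for mitosis genes and 12.5% for replication genes. The median log2 fold change was 0.115 for mitosis genes and -0.018 for replication genes, and 26 of 31 against 10 of 24 lay above 0.

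PTTG1, the securin that holds separase in check until anaphase, stood at 78.7 and 85.6 CPM in the empty vector libraries and at 103 and 98.5 with miR-1. Both miR-1 libraries lay above both controls, as they did for 29.7% of all genes tested. The rule for naming called genes required groups without overlap, so for them such a gap, here and below, is no added support. The log2 fold change of PTTG1 was 0.30 ± 0.051 (SE, n = 2 per group, adjusted p = 0.000308). ANLN, the anillin scaffold of the cleavage furrow, was at 131 and 123 CPM in the controls and 151 and 149 with miR-1, 0.24 ± 0.044 higher on the log2 scale (adjusted p = 0.00066). BIRC5, the survivin subunit of the chromosomal passenger complex, was at 225 and 235 CPM in the controls and 269 and 264 with miR-1, 0.22 ± 0.040 higher (adjusted p = 0.000686). PTTG1 gave the largest rise of the list, 1.23-fold.

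The risers came from every listed step of mitosis, but not in equal measure. Of the 5 kinetochore and chromosome genes only BIRC5 was called, 20% beside 24.5% of all genes tested. The called share was 71.4% for the spindle kinases and spindle proteins and 42.9% for the spindle checkpoint and anaphase-promoting complex genes. All 7 genes of the spindle kinases and spindle proteins lay above 0 and 5 were called: AURKA, AURKB, TPX2, which activates and localises AURKA on the spindle, NUSAP1 and KIF11, with log2 fold changes of 0.12 to 0.20. PLK1, the polo kinase, was at 199.5 and 197 CPM in the controls and 214 and 213 with miR-1, and its difference of 0.11 missed the threshold at an adjusted p of 0.052. Of the spindle checkpoint and anaphase-promoting complex genes 3 of 7 rose, PTTG1, the checkpoint kinase BUB1 (0.13) and the anaphase activator CDC20 (0.19). The mitotic cyclins CCNA2 and CCNB1 rose by 0.12 and 0.14, the phosphatase CDC25B by 0.11, and the cytokinesis kinesin KIF20A by 0.20. MKI67, the Ki-67 protein that coats mitotic chromosomes and marks cycling cells, gave 801 and 625 CPM in the controls and 727 and 797 with miR-1, and its groups overlapped. Without the control at 801 CPM it was 0.29 higher and called, and without the other it was at -0.07. FOXM1, the transcription factor of many mitotic genes, did not pass the test either (0.02, adjusted p = 0.785).

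CKS2, a small subunit bound by CDK1, changed the other way. It stood at 68.4 and 79.6 CPM in the controls and at 63.1 and 64.7 with miR-1, a fall of 0.21 ± 0.061 on the log2 scale (adjusted p = 0.0148). CDK1 itself was at 271 and 282 CPM in the controls and 258 and 264 with miR-1, and its difference of -0.09 was not called (adjusted p = 0.126). The kinase that drives mitosis was therefore not among the genes that rose, and the CKS2 fall rested on the empty vector library at 79.6 CPM, without which the difference was -0.09 and not called.

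Among replication genes, RRM2, the small subunit of ribonucleotide reductase, rose with miR-1 from 250.2 and 256 CPM to 288 and 278, or 0.16 ± 0.040 on the log2 scale (adjusted p = 0.00584). FEN1, the flap endonuclease that trims Okazaki fragments, rose from 127 and 138 CPM to 146 and 146 (0.14 ± 0.047, adjusted p = 0.0393). PCNA fell from 411 and 435 CPM to 395 and 383 (-0.12 ± 0.041, adjusted p = 0.0378). None of the 10 licensing genes and none of the 4 helicase activation genes was called, MCM2 at 0.10 (adjusted p = 0.0616) and CDC6 at 0.11 (adjusted p = 0.08) being the nearest to the threshold among the genes chosen for naming. DESeq2 called neither PCNA nor FEN1 (adjusted p = 0.109 and 0.124), and of the 4 fits that left out a library RRM2 was called in 3 and PCNA and FEN1 in 1 each. FEN1 overlaps FADS2 on the same strand and PCNA and RRM2 each have 3 annotated pseudogenes, so reads could be shared. That holds for mitosis genes that rose as well. AURKA has 2 annotated pseudogenes, AURKB, CDC20 and BUB1 have 1 each, and NUSAP1 overlaps 3 genes on its strand.

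The mitotic rise was present in both miR-1 libraries. The median log2 difference of the 31 mitosis genes from the empty vector mean was 0.104 in the lower library and 0.125 in the higher, against -0.0025 and 0.0025 in the empty vector libraries. When each library of the comparison was left out in turn, ANLN, BIRC5, CDC20, KIF20A, PTTG1 and TPX2 were called every time, and the number of mitosis genes called ran from 6 to 16, while 12.1% to 23.7% of all genes were called. None of the 3 replication calls was made every time, and without miR-1 replicate 1 their number was 0.

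**Figure D2:**
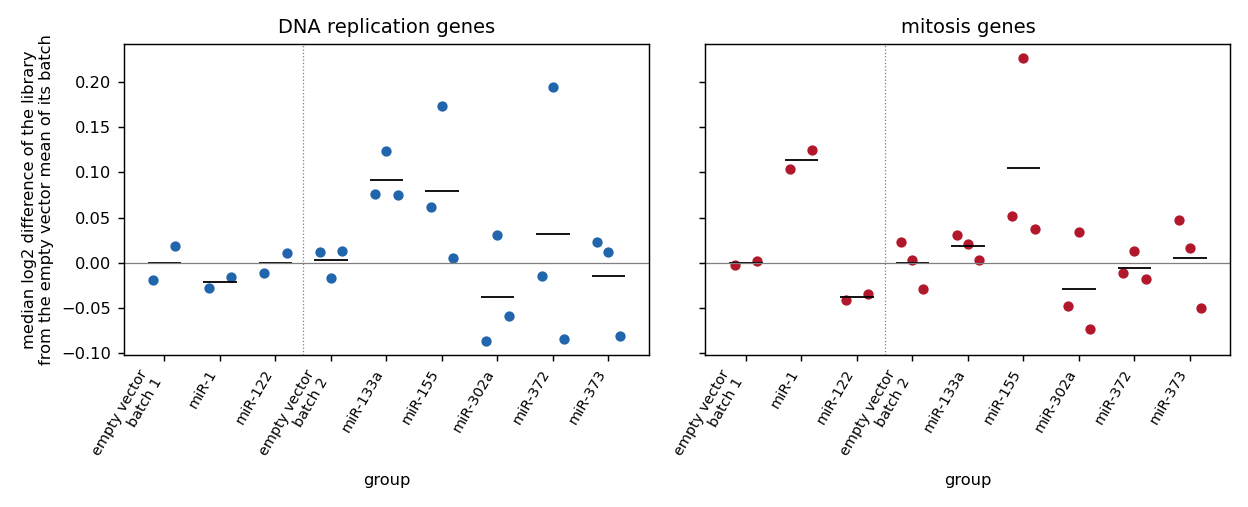
Median log2 difference of the 24 replication genes (left) and the 31 mitosis genes (right) from the empty vector mean of the batch, in each library (points) of each group, with bars at the group means. Both miR-1 libraries lie above 0.10 for mitosis genes, and replicate 2 of miR-155 in both lists and of miR-372 in the replication genes lies far above the other libraries of its group.

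Upon miR-122 expression a single gene of spindle assembly fell strongly, and 52 of the 55 genes differed from the control by less than 0.2 on the log2 scale. KIF11 is the kinesin that slides antiparallel microtubules and pushes the spindle poles apart. It stood at 205 and 205 CPM in the empty vector and at 128 and 139 with miR-122, whereas the miR-1 libraries gave 220.2 and 226. The fall was 0.62 ± 0.045 on the log2 scale, to 0.65 of the control (SE, n = 2 per group, adjusted p = 8.41e-09), and it was called in all 4 fits that left out a library.

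The 3′ UTR of KIF11, 1599 bases long, held 3 matches to the miR-122 seed. They are shown because KIF11 was the only one of the 55 genes with an 8mer of that seed, the seed match followed by A. Letters are from GRCh37 on the plus strand of chromosome 10, and capitals mark the match.
chr10:94413802-94413808, 7mer-m8, 249 bases into the UTR: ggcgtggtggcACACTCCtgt
chr10:94413895-94413902, 8mer, 342 bases into the UTR: ggtacaccactACACTCCAgcc
chr10:94414627-94414634, 8mer, 1074 bases into the UTR: gctctgtgcccACACTCCAaga
Of the 31 mitosis genes 2, KIF11 and MKI67, had an 8mer or 7mer-m8 site (the seed match alone) for miR-122 in the UTR, 6.45%, and of the 24 replication genes 1, CDC6, 4.17%, beside 9.64% of all tested genes with an annotated UTR. CDC6 was at 139 and 143 CPM in the controls and at 139 and 146 with miR-122. MKI67, at 801 and 625 CPM in the controls and 601 and 631 with miR-122, gave -0.21 (adjusted p = 0.0977), and its groups overlapped. Its difference rested on which control was used, -0.38 and called without the control at 625 CPM and -0.02 without the one at 801.

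Only 2 other genes of the 55 were called with miR-122, so that 1 of 24 replication genes and 2 of 31 mitosis genes changed. Among all genes tested 5.92% were called, 1.86% higher and 4.06% lower. CDT1, the loader of the MCM helicase, stood at 190.0 and 186 CPM in the controls and at 215 and 208 with miR-122, 0.17 ± 0.041 higher (adjusted p = 0.0162). CENPF, a large protein of the outer kinetochore, was at 659.9 and 567 CPM in the controls and 506 and 551 with miR-122 (-0.21 ± 0.058, adjusted p = 0.0304). The CENPF control libraries differed by more than the gap between the groups, DESeq2 gave it an adjusted p of 0.475, and without the control library at 659.9 CPM its difference was -0.10 and not called, while without the one at 567 it was -0.32 and called. CDT1 was called in 2 of the 4 fits that left out a library. List medians were -0.005 for replication and -0.039 for mitosis genes, and 23 of the 31 mitosis genes lay below 0.

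The 2 miRNAs of batch 1 were also compared directly, a comparison that does not pass through the shared empty vector. Of the 55 genes 27 differed between miR-1 and miR-122 cells, 21 of 31 mitosis genes and 6 of 24 replication genes, beside 31.2% of all genes tested. Higher with miR-1 were 20 mitosis genes (15.2% of all genes tested were higher) and lower was 1 (16%). The median log2 difference was 0.146 for mitosis and 0.020 for replication genes. KIF11 was 1.68-fold higher with miR-1 (0.74 ± 0.045, adjusted p = 2.01e-10), and BIRC5 (0.30 ± 0.040, adjusted p = 1.74e-05) and MKI67 (0.31 ± 0.072, adjusted p = 0.0029) followed. All 4 cytokinesis genes, KIF20A, KIF23, ECT2 and ANLN, were higher with miR-1, by 0.11 to 0.26. KIF20A and ANLN were called in all 4 fits that left out a library, ECT2 in 2 and KIF23 in 0. CDK1 was the mitosis gene lower with miR-1, at 258 and 264 CPM against 295 and 299 with miR-122 (-0.19 ± 0.040, adjusted p = 0.00129). CDT1 showed the largest difference of a replication gene, 175 and 178 CPM with miR-1 against 215 and 208 with miR-122 (-0.26 ± 0.041, adjusted p = 8.4e-05). These genes were chosen after their values were seen. With a library left out, 15 to 17 of the 55 were called (17.5% to 20.5% of all genes), and DESeq2 called 15 (19.6% of all genes). Of the 21 mitosis calls 11 were made in every fit that left out a library and 4 in none. Of the 6 replication calls 1 was made in every such fit and 3 in none.

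**Figure D3:**
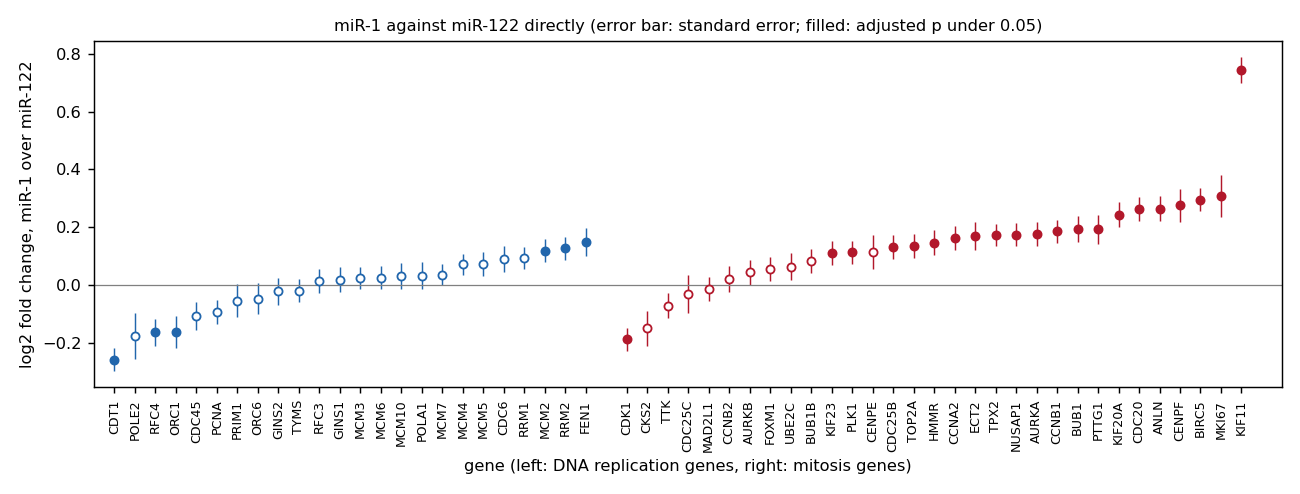
Log2 fold change of miR-1 over miR-122 for each gene with its standard error (bars), replication genes in blue on the left and mitosis genes in red on the right, ordered by value and filled where the adjusted p is under 0.05. The mitosis genes lie mostly above 0, up to KIF11 at 0.74, while the replication genes run from CDT1 at -0.26 to FEN1 at 0.15.

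Upon miR-133a expression no replication gene and 1 mitosis gene were called, beside 5.34% of all genes tested, 1.37% higher and 3.97% lower. BIRC5 stood at 249, 233 and 255 CPM in the empty vector of batch 2 and at 301, 319 and 295 with miR-133a. Every miR-133a library lay above every control, as the naming rule required (0.31 ± 0.083, SE, n = 3 per group, adjusted p = 0.0326). The call was lost in each of the 6 fits that left out a library. For replication genes the count of 0 compares with 4 of 24 at an unadjusted p under 0.05 (20.4% of all genes) and 0 by DESeq2 (7.56%). Of these genes 19 lay above 0, with a median of 0.082, and in 11 of them every miR-133a library exceeded every control, as it did for 17.5% of all genes tested. The largest were FEN1, at 133.2, 133.8 and 139.6 CPM in the controls and 162, 168 and 154 with miR-133a (0.25 ± 0.131, adjusted p = 0.295), and POLE2, at 21.9, 20.6 and 21.7 against 25.2, 28.3 and 22.6 (0.25 ± 0.123, adjusted p = 0.271). Their levels did not overlap, yet neither passed the test. The mitosis genes had a median of 0.016, with CENPF the lowest at 497, 428 and 421 CPM against 621, 614 and 526 in the controls (-0.39 ± 0.119, adjusted p = 0.0649).

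Upon miR-155 expression 1 replication gene rose and no mitosis gene was called, beside 7.63% of all genes tested, 2.82% higher and 4.81% lower. GINS2, a subunit of the GINS complex that joins the MCM helicase when origins fire, stood at 96.7, 96.1 and 96.3 CPM in the empty vector and at 117, 142 and 108 with miR-155 (0.35 ± 0.093, adjusted p = 0.0281). All 3 miR-155 libraries lay above the controls, replicate 2 by most. For mitosis genes the count of 0 compares with 10 of 31 at an unadjusted p under 0.05 (23.8% of all genes) and 2 by DESeq2 (10.2%), and 25 of 31 lay above 0 with a median of 0.116. PTTG1 was at 103, 131 and 97.5 CPM with miR-155 and 91.9, 76.3 and 81.6 in the controls (0.41 ± 0.134, adjusted p = 0.07), and CKS2 at 101, 129 and 96.8 against 92.0, 88.4 and 82.2 (0.31 ± 0.113, adjusted p = 0.0958).

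In each of these 3 genes replicate 2 of miR-155 was the highest library. That library had a median of 0.226 over the mitosis genes, against 0.037 and 0.052 in the other 2 miR-155 libraries, and 0.173 over the replication genes, against 0.005 and 0.061. It was also the library with the lowest slope on exon length, -0.101. Without it the GINS2 difference was 0.23 and that of CKS2 0.18. The part of the length slope in these differences was not tested beyond a fit with the slope as a covariate, in which GINS2 differed by 0.16 (adjusted p = 0.26).

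Set against each other, miR-133a and miR-155 cells differed in 8 of the 55 genes, 5 of replication and 3 of mitosis, beside 16.7% of all genes tested, 8.14% higher with miR-133a and 8.61% lower. The share of the 55 was thus under the background. HMMR, a spindle protein that binds TPX2, was at 95.7, 92.7 and 89.9 CPM with miR-133a and at 114, 132.8 and 121 with miR-155 (-0.40 ± 0.074, adjusted p = 0.000768). It was the only gene of the 55 called in all 6 fits that left out a library of this comparison. The empty vector libraries, at 121, 103 and 106, lay above the miR-133a range and overlapped that of miR-155. CDT1 was higher with miR-133a, at 217, 238 and 224 CPM against 169.6, 170.1 and 191 (0.36 ± 0.103, adjusted p = 0.0218), and so was MCM7, at 892, 911 and 904 against 773, 782 and 759 (0.23 ± 0.069, adjusted p = 0.0282). TYMS, RFC3, ORC1, CDC25C and KIF20A were lower with miR-133a, by 0.24 to 0.38 on the log2 scale. These genes too were named after their values were seen.

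The 3 miRNAs of the shared seed were compared with the same empty vector, so their values are given side by side. In all, 2 of the 55 genes were called with miR-302a, 5 with miR-372 and 0 with miR-373, and all 7 calls were mitosis genes. The background was 7.88%, 11.4% and 5.13% of all genes tested, of which 4.85%, 6.56% and 3.3% were lower and 3.02%, 4.82% and 1.83% higher. For replication genes the 3 counts of 0 compare with 6, 2 and 1 of 24 at an unadjusted p under 0.05 (23.2%, 26.7% and 17.7% of all genes) and with 1, 0 and 0 by DESeq2 (9.5%, 13.2% and 6.37%). For mitosis genes with miR-373 the count of 0 compares with 5 of 31 at an unadjusted p under 0.05 and 1 by DESeq2.

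CENPF was the lowest mitosis gene in each of the 3. The empty vector libraries gave 621, 614 and 526 CPM, the miR-302a libraries 357, 501 and 401, the miR-372 libraries 460.4, 369 and 455, and the miR-373 libraries 510.4, 527 and 447. With miR-302a and miR-372 every library lay below every control, whereas with miR-373 replicate 2 overlapped them. The log2 fold changes were -0.48 ± 0.119 (adjusted p = 0.0162), -0.46 ± 0.119 (adjusted p = 0.0185) and -0.25 ± 0.119 (adjusted p = 0.287). CENPF held no 8mer or 7mer site of this seed in its UTR and 1 match in its coding sequence. The call was made in 2 of the 6 fits that left out a library with miR-302a and in 3 of 6 with miR-372, and without miR-302a replicate 2 the difference was -0.63.

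AURKB, the catalytic kinase of the chromosomal passenger complex, was higher in every library of the 3 groups. The empty vector gave 148, 153 and 148 CPM, miR-302a 192, 168 and 187, miR-372 182, 187 and 184, and miR-373 167, 166 and 191. It rose by 0.29 ± 0.074 with miR-302a (adjusted p = 0.0217) and by 0.30 ± 0.074 with miR-372 (adjusted p = 0.0125), and the call held in all 6 fits that left out a library with miR-372 but in 1 of 6 with miR-302a. BIRC5, its partner in the complex, gave 301, 325 and 276 CPM with miR-372 against 249, 233 and 255 (0.29 ± 0.083, adjusted p = 0.0289), and 309, 279 and 301.6 with miR-302a (0.27 ± 0.083, adjusted p = 0.0521). AURKA, the kinase of the spindle poles, rose with miR-372 from 129, 135 and 129 CPM to 153, 164 and 143 (0.23 ± 0.072, adjusted p = 0.0474). With miR-372 the calls of BIRC5, AURKA and CKS2 were each made in 1 of the 6 fits that left out a library.

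CKS2 stood at 92.0, 88.4 and 82.2 CPM in the controls, at 117, 114 and 105 with miR-372 and at 121.8, 95.6 and 121 with miR-302a. It rose with miR-372 (0.35 ± 0.112, adjusted p = 0.0477), the opposite direction to its fall with miR-1, and narrowly missed the threshold with miR-302a (0.36 ± 0.113, adjusted p = 0.0533). With miR-373 it was the mitosis gene of the largest change, at 109, 99.3 and 107 CPM (0.26 ± 0.112, adjusted p = 0.214). KIF11 was at 157, 197 and 157 CPM with miR-302a, 169, 177 and 169.6 with miR-372 and 186, 199 and 165 with miR-373, against 208, 209 and 201. All 9 libraries lay below the 3 controls, but the differences with miR-302a (-0.28, adjusted p = 0.0522) and miR-372 (-0.26, adjusted p = 0.0512) were not called.

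**Figure D4:**
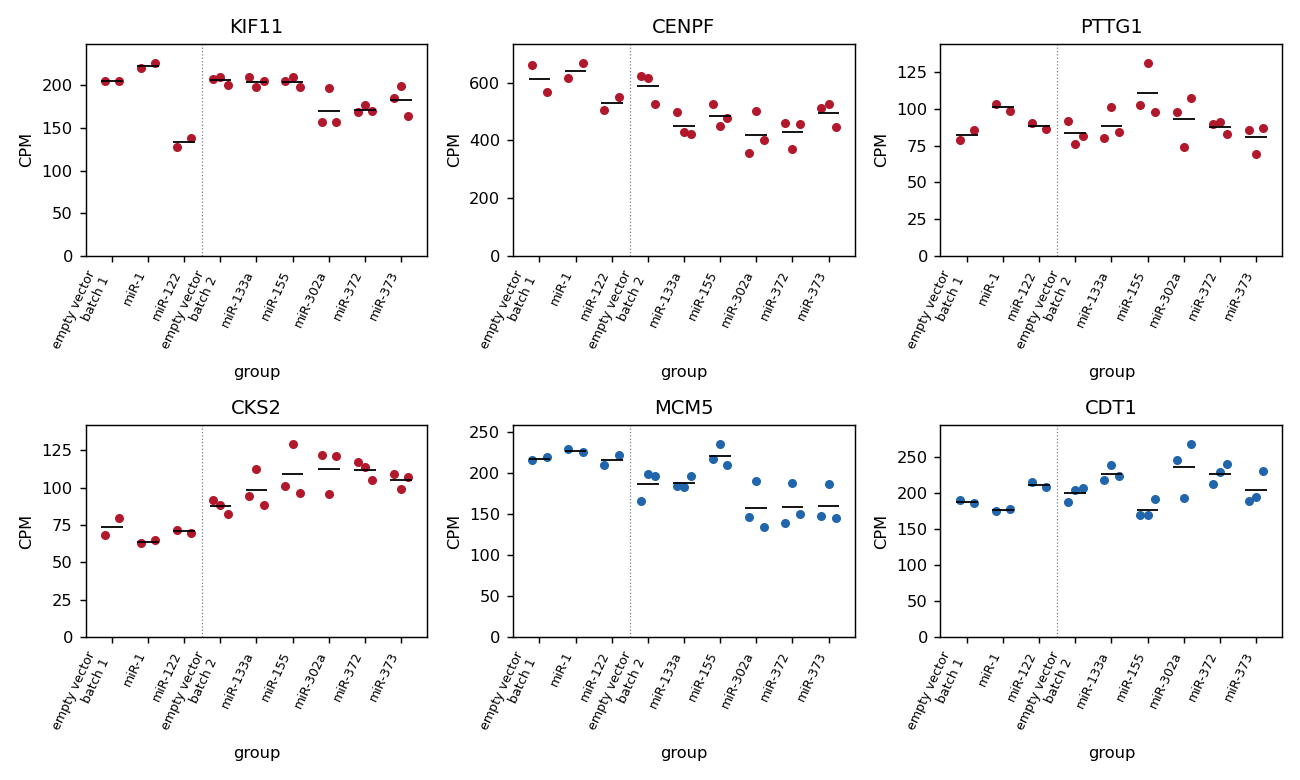
CPM of KIF11, CENPF, PTTG1 and CKS2 (mitosis genes, red) and MCM5 and CDT1 (replication genes, blue) in every library (points) by group, with bars at the group means and a dotted line between the batches. KIF11 is lowest with miR-122 at 128 and 139 CPM, and MCM5 with miR-302a, miR-372 and miR-373 shows 1 library near the controls and 2 below them.

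Among replication genes of this family MCM5, a subunit of the MCM helicase, had the largest difference, and 1 library of each group set its spread. It gave 166, 199 and 197 CPM in the empty vector, 146, 191 and 134 with miR-302a, 139, 188 and 149.6 with miR-372, and 148, 187 and 145 with miR-373. Replicate 2 of each miRNA group lay within the control range and the other 2 libraries below it, with log2 fold changes of -0.25 ± 0.130 (adjusted p = 0.247), -0.24 ± 0.129 (adjusted p = 0.247) and -0.23 ± 0.129 (adjusted p = 0.384). Without miR-302a replicate 2, where 12.4% of all genes were called, 5 replication genes changed with miR-302a: MCM5 (-0.42), POLA1 (-0.42), MCM2 (-0.27) and MCM7 (-0.26) lower and CDT1 (0.36) higher. Without the same library 6 mitosis genes were called with miR-302a, KIF11 (-0.40), CENPF (-0.63) and ECT2 (-0.30) lower and AURKB, BIRC5 and CKS2 higher. POLA1, the catalytic subunit of the priming polymerase, showed the same spread at 108, 154 and 117 CPM against 145, 159 and 147 (-0.25 ± 0.103, adjusted p = 0.151). With miR-372 the second largest difference was GINS2, at 105, 130.2 and 103 CPM against 96.7, 96.1 and 96.3 (0.22 ± 0.093, adjusted p = 0.13). With miR-373 it was MCM7, at 714, 765 and 705 CPM against 773, 837 and 840.5 (-0.17 ± 0.069, adjusted p = 0.196).

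Compared directly, no pair of the seed family had a called difference in the 55 genes, nor in any of the 14054 genes tested. The counts of 0 compare with 0.868% of all genes at an unadjusted p under 0.05 and 0 genes by DESeq2 for miR-302a against miR-372, 1.31% and 3 for miR-302a against miR-373, and 1.11% and 1 for miR-372 against miR-373. Of the 55 genes 0, 2 and 0 had an unadjusted p under 0.05, and DESeq2 called none. The largest difference was -0.13 ± 0.114 (RRM2) in the first pair, -0.24 ± 0.119 (CENPF) in the second and -0.24 ± 0.183 (MKI67) in the third. With a median standard error of 0.085 per gene, differences as large as 0.24 on the log2 scale went uncalled here. The counts of 0 therefore do not show that the 3 miRNAs act alike.

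In batch 2 the genes that fell and those that rose also differed in length. CENPF and MKI67 have 10307 and 12678 bases of counted exon, and CKS2 has 613, the fewest of the 55. The 7 genes of the lists with over 5 kb of exon had a median log2 fold change of -0.238 with miR-302a and -0.202 with miR-372, and 6 of the 7 lay below 0 in each. All tested genes of that length had medians of -0.097 and -0.102, and those of at most 5 kb had 0.044 and 0.050. In batch 1 the corresponding medians over all long genes were -0.010 with miR-1 and -0.036 with miR-122. When the slope of each library on exon length was added to the model of batch 2, a choice made after the data were seen, CENPF gave -0.31 with miR-302a (adjusted p = 0.064) and -0.27 with miR-372 (adjusted p = 0.117), and CKS2 with miR-372 gave 0.16 (adjusted p = 0.312). BIRC5 with miR-372 gave 0.13 (adjusted p = 0.161) and AURKB with miR-302a 0.22 (adjusted p = 0.0697) in the same fit. AURKB with miR-372 (0.23, adjusted p = 0.0492) and BIRC5 with miR-133a (0.22, adjusted p = 0.0159) were still called in it. Without miR-155 replicate 2 and miR-372 replicate 2, CENPF with miR-372 gave -0.36 (adjusted p = 0.0612) and BIRC5 with miR-372 0.23 (adjusted p = 0.0609), neither of them called. CENPF and AURKB with miR-302a and CKS2 with miR-372 were called in that fit. The direction was the same in both fits for each of these genes.

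**Figure D5:**
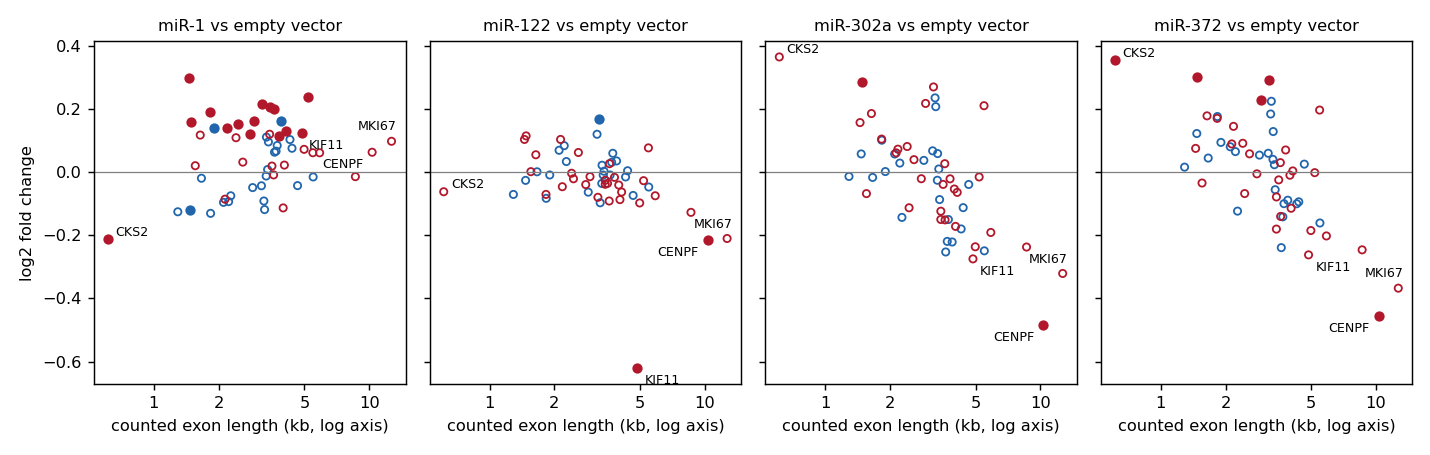
Log2 fold change of each replication gene (blue) and mitosis gene (red) against its counted exon length in kilobases (log axis) for 4 of the comparisons with the empty vector, filled where the adjusted p is under 0.05. With miR-302a and miR-372 the longest genes (CENPF, MKI67) lie lowest and the shortest (CKS2) highest, and with miR-1 CKS2 lies lowest.

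Followed across all 7 miRNAs, most of the best-known proliferation genes were not called. Of CDC6, MCM2, PCNA, RRM2, CCNB1, CDK1, PLK1, MKI67 and FOXM1, genes in wide use as cell cycle markers, PCNA, RRM2 and CCNB1 were called, each with miR-1 alone. With miR-1 24.5% of all genes tested were called. FOXM1 was between -0.04 and 0.06 in all 7 comparisons. MKI67 was between -0.37 and 0.10 and was called in none of the 7 with all libraries in the fit. Its libraries spread widely within a group, from 638 to 851 CPM in the empty vector of batch 2 and from 386 to 696 with miR-372. Of the 21 genes with any call, 2 were called in opposite directions: CKS2, lower with miR-1 and higher with miR-372, and KIF11, higher with miR-1 (0.12) and lower with miR-122.

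Seed matches in the 3′ UTRs were present in a smaller share of both lists than of all genes tested for 4 of the 5 seeds, and in a larger share of replication genes for the shared seed. An 8mer or 7mer-m8 site for miR-1 was present in 2 of 24 replication and 3 of 31 mitosis genes (8.33% and 9.68%, all genes 14.4%). None of these 5 was called with miR-1 in the direction of lower mRNA, beside 582 of all 1905 tested genes with such a site. For miR-133a the counts were 2 and 1 (8.33% and 3.23%, all genes 9.11%), and for miR-155 they were 1 and 0 (4.17% and 0%, all genes 13%). For the shared seed they were 9 of 24 (37.5%) and 3 of 31 (9.68%), all genes 26.4%. All 12 were 7mer-m8 sites, and none of the 12 genes was called with any of these 3 miRNAs. Of all 3441 tested genes with a site of this seed, 335 were called lower with miR-302a, 427 with miR-372 and 236 with miR-373. Most genes with a site were thus not called either, and the counts of 0 say nothing particular about these few genes.

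The 9 replication genes were MCM2, MCM3, MCM4, MCM6, MCM10, CDT1, ORC6, GINS2 and PRIM1, which load, activate or prime at origins. Of the 11 sites of both lists whose flanking letters were compared, 6 had the same ones, cccAGCACTTtgg. These were in CDT1, GINS2, ORC6 and PRIM1 and in the mitosis genes KIF11 and MAD2L1. The part of this shared stretch in the share of genes with a site was not tested. The median log2 fold change of the 9 replication genes was -0.026 with miR-302a, 0.025 with miR-372 and 0.021 with miR-373, and that of the 3 mitosis genes, ECT2, KIF11 and MAD2L1, was -0.237, -0.185 and -0.136. All genes with such a site had -0.069, -0.072 and -0.036. The coding sequence held an 8mer or 7mer-m8 match of this seed in 2 replication genes (8.33%) and 6 mitosis genes (19.4%), beside 12.7% of all genes. The 6 were BIRC5, CENPF, FOXM1, KIF11, MKI67 and PLK1, and of these CENPF fell with miR-302a and miR-372 and BIRC5 rose with miR-372.

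The 2 lists also differed in their promoters. In windows from 250 bases before to 50 after the gene start (RefSeq, GRCh38.p14), an E2F-type match (TTTCCCGC, TTTCGCGC, TTTGCCGC or TTTGGCGC on either strand) was found in 46.4% of 28 windows of replication genes, 8.6% of 35 windows of mitosis genes and 3.3% of all 35116 windows. A CHR-type match (TTTGAA on either strand), the element through which mitotic genes are held silent until G2, was found in 3.6%, 57.1% and 15.2%. A CCAAT box on either strand was found in 71.4%, 77.1% and 34.6%. A window with both CHR-type and CCAAT letters made up 48.6% of those of mitosis genes and 5.9% of all. Windows were at hand for 47 of the 55 genes, some with more than 1 start. An example of each is shown with the match in capitals, written along the gene.
CDC6, E2F-type, chr17:40287877-40287902, plus strand: ccattcggaTTTGGCGCgagcgcggc
MCM2, E2F-type, chr3:127598404-127598429, plus strand: tgaaccactTTTCGCGCgaaacctgg
PLK1, CHR-type, chr16:23678851-23678874, plus strand: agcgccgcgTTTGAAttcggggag
KIF11, CHR-type, chr10:92593093-92593116, plus strand: tgtctctttTTCAAAttgaggcgc
The letters describe the lists and say nothing of which factor was bound in these cells.

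Beyond the 55 genes, other genes of the same pathways were counted in the same way. With miR-1 the listed genes had called shares of 48.4% (mitosis) and 12.5% (replication), and the other genes lay nearer the share of all genes. With miR-1, 17 of 66 other mitosis genes rose and 4 fell, from CENPH at -0.20 to the condensin subunit NCAPD2 at 0.35, and of 46 other replication genes 5 rose and 8 fell, called shares of 31.8% and 28.3% beside 24.5% of all genes. With miR-122, 4 other mitosis genes fell and none rose, the lowest being CEP55, a scaffold of the final cut between daughter cells, at -0.98, a called share of 6.06% beside 5.92%. CEP55 was also the lowest called other mitosis gene with miR-302a (-0.47), miR-372 (-0.59) and miR-373 (-0.42), where 3, 2 and 1 of the 66 fell and 1, 2 and 0 rose, shares of 6.06%, 6.06% and 1.52% beside 7.88%, 11.4% and 5.13%. With miR-133a 1 fell and 2 rose, and with miR-155 2 fell and 1 rose, 4.55% in each beside 5.34% and 7.63%. Among other replication genes 4 fell and 2 rose with miR-155, from the polymerase subunit POLE3 at -0.80 to the thymidine kinase TK1 at 0.53, and with miR-122 3 fell and 1 rose, shares of 13% and 8.7% beside 7.63% and 5.92%. None was called with miR-133a, miR-302a, miR-372 or miR-373.

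Of the 20 transcriptional regulators listed for these pathways, the following passed the test. With miR-1, 4 fell and 3 rose, E2F5, a repressor E2F, falling by 1.70 on the log2 scale and E2F1, an activator, rising by 0.18. RB1, the retinoblastoma protein that restrains E2F, fell with miR-302a (-0.73) and miR-372 (-0.76), where 5 of the 20 fell and MYC rose by 0.45 and 0.42. With miR-373 5 fell, LIN52 of the MuvB core most (-0.64), and with miR-133a 2 fell and 2 rose, LIN52 at -0.48 and E2F6 at 0.38. With miR-155 3 fell, MYC by 0.55, and with miR-122 2 fell and 1 rose, RBL1 at -0.25 and E2F1 at 0.16. The called share of the 20 was 35% with miR-1 and 15% with miR-122, beside 24.5% and 5.92% of all genes. In batch 2 it was 20% with miR-133a, 15% with miR-155, 30% with miR-302a, 30% with miR-372 and 25% with miR-373, beside 5.34%, 7.63%, 7.88%, 11.4% and 5.13%.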

How the data were processed

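The authors clipped adapters with fastx_clipper, aligned reads with TopHat2 2.1.1 to hg19 and counted reads over exons by strand with featureCounts (the submitters' processing notes also name edgeR 3.24.3). The deposited values used here are raw read counts per gene, 1 table per batch, with Ensembl identifiers. Symbols were given to 28543 of 29794 genes. The other deposited tables hold the authors' own comparisons (fold changes, p-values, false discovery rates) and were not used. The members and gene lists were chosen with earlier results of these data known.

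Genes passed edgeR's filterByExpr at a minimum count of 10, libraries were scaled by TMM, and all groups of a batch were fitted together by group with edgeR 4.0.16 in R 4.3.3 (quasi-likelihood test, Benjamini-Hochberg adjustment over all tested genes, threshold 0.05, prior count 0.125). Each standard error came from the fold change and its F statistic (log2 value over root F). CPM use TMM-scaled library sizes. Depth, 13047400 to 35040778 counts per library, leaves every one of the 55 genes at 253 counts or more. The script was tested on simulated data. Alternatives were DESeq2 1.42.0, DESeq2 size factors, no filter, a filter at 1 CPM, the compared groups alone, a replicate block, each library left out, and 2 choices made after the data were seen.

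Replicate numbers were checked by the correlation of same-numbered libraries' deviations from their group means. All 3 exceeded 0.1 for miR-133a with miR-155 (0.18, 0.35 and 0.20) and for miR-302a with miR-372 (0.23, 0.34 and 0.16), so these were taken as paired by the data, since the labels do not say that a number marks a shared batch. No other comparison met this rule. Replicates 2 and 3 correlated more strongly than these for miR-302a with miR-373 (0.57 and 0.39) and for miR-372 with miR-373 (0.36 and 0.50). Replicate 1 did not (0.02 and 0.06), and these comparisons were not taken as paired. Genes were named by rule: in each list the 3 lowest and 3 highest called genes whose groups did not overlap or, with no call, the 2 largest changes, and CDC6, MCM2, PCNA, RRM2, CCNB1, CDK1, PLK1, MKI67 and FOXM1 throughout. Further members were named after their values were seen. Genes outside the lists were named only as the lowest or highest called of a further list. Seed matches were searched in the 3′ UTR of 1 transcript per gene, that with the longest annotated 3′ UTR, on GRCh37, the same assembly as hg19.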

Additional observations from a re-analysis of the deposited data

Results flagged for a closer look

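Of the 55 genes, 27 differed between miR-1 and miR-122 cells of batch 1 in the direct test of one miRNA's effect against the other's, beside 31.2% of all genes tested. KIF11, at 220.2 and 226 CPM against 128 and 139, was the largest difference.

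In batch 2, 8 of the 55 genes differed between miR-133a and miR-155 cells in the same kind of test, a smaller share than the 16.7% of all genes tested, so the count says nothing particular about these genes. HMMR, at 95.7, 92.7 and 89.9 CPM against 114, 132.8 and 121, was the largest. Groups of 2 or 3 libraries are too small for a test of single outlying libraries.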

How the results depend on the processing

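No called gene among those named by rule changed direction under any alternative, and KIF11 with miR-122 was called under every one run. The direction of the other called genes, and of those in the direct comparisons, was followed only when a library was left out. It changed for none of them. The counts below are of called genes, with the count in the report in parentheses at first mention, and every count of the report not named for an alternative stayed within 1.5 times its value. The share of all genes called moved with the alternative as well, and is given as a range over the comparisons with the empty vector.

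With DESeq2, miR-1 had 1 replication call (3), miR-155 had 3 (1) and miR-302a had 1 (0). Mitosis calls were 1 upon miR-122 (2), 5 upon miR-133a (1), 2 upon miR-155 (0), 6 upon miR-302a (2) and 1 upon miR-373 (0), and the direct comparison of miR-1 and miR-122 gave 15 (27), with 3.46% to 13.5% of all genes called. With DESeq2 size factors in the edgeR fit, mitosis calls were 2 upon miR-133a and 4 upon miR-302a, and PLK1 was called with miR-1 (adjusted p = 0.0447), at 5.09% to 24.8%. With no filter they were 2 upon miR-133a and 2 upon miR-155, at 3.46% to 17%. With genes above 1 CPM they were 3 upon miR-133a and 5 upon miR-302a, and replication calls were 2 upon miR-155 and 1 upon miR-302a, at 5.42% to 27.4%. With the compared groups alone, replication calls were 1 upon miR-1, 2 upon miR-133a and 0 upon miR-155, and mitosis calls 6 upon miR-133a, 4 upon miR-302a, 3 upon miR-372 (5) and 1 upon miR-373, at 5.21% to 22.1%. Upon miR-133a this fit called 17.3% of all genes, against 5.34% in the report.

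With the replicate block, replication calls were 1 upon miR-1, 2 upon miR-155 and 1 upon miR-302a, and mitosis calls 1 upon miR-122, 5 upon miR-133a, 1 upon miR-155 and 7 upon miR-302a, at 4.57% to 20.5% of all genes. PCNA and FEN1 with miR-1 and CENPF with miR-122 were then not called. In the 2 paired comparisons the block gave 9 (8) for miR-133a against miR-155 and 0 (0) for miR-302a against miR-372. Elsewhere the rule for pairing was not met, though for miR-302a and for miR-372 with miR-373 it failed on replicate 1 alone.

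Of the choices made after the data were seen, leaving out replicate 2 of miR-155 and of miR-372 gave 1 replication call upon miR-133a and 2 upon miR-302a, and mitosis calls of 5 upon miR-133a, 7 upon miR-302a, 2 upon miR-372 and 1 upon miR-373, at 5.53% to 14.5% of all genes. The length slope as a covariate gave 0 replication calls upon miR-155, 2 upon miR-302a and 1 upon miR-372, and mitosis calls of 3 upon miR-133a, 1 upon miR-302a and 2 upon miR-372, at 4.48% to 9.6%. It moved the replication median upon miR-302a to -0.124 from -0.016. The causes were not tested.

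Leaving out 1 library at a time gave replication calls from 0 to 4 upon miR-1, from 0 to 1 upon miR-122, from 0 to 2 upon miR-155 and from 0 to 5 upon miR-302a, and 0 in every fit upon miR-133a, miR-372 or miR-373. Mitosis calls ran from 6 to 16 upon miR-1, from 1 to 7 upon miR-122, from 0 to 1 upon miR-155, from 0 to 6 upon miR-302a and from 1 to 5 upon miR-372, and were 0 in every fit upon miR-133a or miR-373. The 7 upon miR-122 came without empty vector replicate 2 of batch 1, where 10.9% of all genes were called (5.92%), and over all such fits the share ran from 2.18% to 23.7%. The direct comparisons gave 15 to 17 for miR-1 against miR-122, 1 to 6 for miR-133a against miR-155 and 0 within the seed family.

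Groups hold 2 or 3 libraries and most differences are under 0.2 on the log2 scale, so a count of calls is less firm than the levels given for each library. In batch 2 the empty vector libraries lie near the upper end of the slope on exon length, beside miR-373 replicate 2 at 0.040, and length and miRNA cannot be fully told apart there.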
